A study of Mus musculus with 6 samples.

Results

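The exon bins of Ttn, the mouse gene for titin, were followed from the 5′ to the 3′ end of the transcript in hearts. The deposited table counts reads in 425461 exon bins, which are stretches of exon cut wherever the annotated transcripts of a gene differ. All 392 bins that carry the identifier of Ttn (ENSMUSG00000051747) were taken, and no bin joined Ttn with another gene. They cover 116825 exonic bases on the minus strand of chromosome 2, from 76703980 to 76982547 (GRCm38), and run from 1 to 17106 bases in length. The samples were 6 hearts of C57BL/6 mice. The 3 wild-type hearts carried the Txnip flox label, and the 3 conditional knock-in hearts carried the Txnip mutant labelled PPXY to AAXA. All 6 were labelled MerCreMer, a Cre recombinase that works once an oestrogen receptor ligand is given, and all received 4-hydroxytamoxifen. The labels do not name the promoter that drives MerCreMer, nor age, sex or a batch, and the control hearts also serve another series.

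Titin is the giant spring of the sarcomere, the contractile unit of muscle. A single molecule reaches from the Z-disc, where its amino terminus is anchored, through the elastic I-band and the thick filament of the A-band to the M-band, where its carboxyl terminus lies. The spring of the I-band is built from immunoglobulin domains, the N2B and N2A elements and the PEVK region, which is named after the amino acids proline, glutamate, valine and lysine. Most I-band exons are spliced out of the adult heart isoforms, and the splicing factor RBM20 is the known regulator of that choice.

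Exons were numbered from 1 to 347 along the longest annotated transcript, which holds 376 of the bins and 106824 bases. The PEVK region and the start of the A-band were set from the sequence of that transcript, and the other parts from exon order and length. The Z-disc was exons 1 to 28, N2B was found by its length, and N2A by the usual exon numbers counted from N2B. The M-band was the last 6 exons, and the exon before them was taken as that of the titin kinase. Neither was checked against sequence. PEVK exons were those in a run where most codons encode P, E, V or K, and the A-band began at the first exon with a fibronectin type III signature. The following exons, 5′ to 3′ on the minus strand, show what these landmarks look like. Codons for P, E, V or K are in capitals in the N2A exon and in the PEVK exons, and codons of the fibronectin type III signature (W, P, D and G) are in capitals in the first A-band exon, of which the first 300 bases are shown. The sequences are those of the GENCODE transcript on GRCm38.
Exon 101, N2A (chr2:76871705-76871888): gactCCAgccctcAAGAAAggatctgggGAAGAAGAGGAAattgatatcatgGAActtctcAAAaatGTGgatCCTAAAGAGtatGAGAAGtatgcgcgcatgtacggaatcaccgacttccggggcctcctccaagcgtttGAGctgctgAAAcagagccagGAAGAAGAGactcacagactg
Exon 110, opening PEVK (chr2:76865223-76865297): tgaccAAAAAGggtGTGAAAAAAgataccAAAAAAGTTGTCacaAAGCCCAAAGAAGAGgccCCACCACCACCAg
Exon 141, middle PEVK (chr2:76847725-76847808): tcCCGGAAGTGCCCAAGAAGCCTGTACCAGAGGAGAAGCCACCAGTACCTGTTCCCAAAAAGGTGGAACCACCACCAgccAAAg
Exon 203, closing PEVK (chr2:76817789-76817863): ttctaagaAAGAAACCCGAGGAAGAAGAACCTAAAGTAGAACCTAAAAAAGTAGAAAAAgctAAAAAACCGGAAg
Exon 235, first A-band exon (chr2:76795878-76796180): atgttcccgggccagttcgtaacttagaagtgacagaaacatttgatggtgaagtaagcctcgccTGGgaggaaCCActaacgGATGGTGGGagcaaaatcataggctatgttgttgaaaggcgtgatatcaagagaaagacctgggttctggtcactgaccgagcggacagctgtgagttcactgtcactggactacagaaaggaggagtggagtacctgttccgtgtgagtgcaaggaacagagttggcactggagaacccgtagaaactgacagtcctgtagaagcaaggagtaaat
In exon 110 the 4 amino acids make up 75.0% of the codons, in exon 141 they make up 96.3%, and in exon 203 they make up 87.5%. In the N2A exon 101 they make up 32.8%.

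The libraries held 30329004 to 30625093 counts in the wild type and 31989883 to 34016586 in the knock-in. Ttn took 31279, 26003 and 39104 of them in wild-type hearts 1 to 3, and 20711, 26153 and 54117 in knock-in hearts 1 to 3, the order kept for all values that follow. Levels are given in CPM, for which each library's total was first adjusted by the trimmed mean of M-values (TMM). Cardiomyocyte markers summed to 86743 to 90463 CPM in the wild type and 91581 to 98783 CPM in the knock-in. Every knock-in sum was above every wild-type sum, although none of the 6 markers tested was called on its own. Of the 6, only Myh6 did not overlap, at 21947, 16873 and 24032 against 26310, 29874 and 26429 CPM. Myl3 stood at 10187, 11154 and 8382 against 10494, 6648 and 6678 CPM, and Tnnt2, Actc1, Myl2 and Pln overlapped as well. Smooth muscle markers were lower in the knock-in, with 3 of 4 called, and summed to 241 to 270 CPM in the wild type against 84.9 to 168 CPM in the knock-in. Over all 13066 genes tested, edgeR called 4.09% lower. Macrophage markers summed to 166 to 186 CPM against 128 to 136 CPM, with 1 of 4 called lower. Lyz2 made up most of that sum, at 134, 140 and 125 against 87.8, 86.2 and 86.5 CPM. Adgre1, Csf1r and Cd68 overlapped between the groups. Endothelial markers (346 to 494 against 262 to 428 CPM) and fibroblast markers (613 to 655 against 568 to 681 CPM) overlapped, each with 1 of 4 called lower. Of the fibroblast markers, Dcn was higher in every knock-in heart, Col1a1 and Col3a1 were lower in every knock-in heart, and Pdgfra overlapped. The part of this cell makeup in the Ttn results was not tested. Txnip itself stood at 887, 939 and 886 CPM in the wild type, against 363, 751 and 670 CPM in the knock-in, and the counts do not show which allele was read. A fragment was counted in every bin it touched, so neighbouring bins share reads, and 50 of the 392 Ttn bins had no count in any heart. In whole hearts, a change in the number of cardiomyocytes and a change in Ttn RNA per cardiomyocyte cannot be told apart.

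Summed over the gene, Ttn did not pass the test. It reached 1004, 832 and 1257 CPM in the wild type (1031 ± 214, SD, n = 3) and 676, 796 and 1591 CPM in the knock-in (1021 ± 497, SD, n = 3). The knock-in minus wild-type difference was -0.01 ± 0.29 (log2, SE; edgeR quasi-likelihood test, adjusted p = 0.982), where 10.8% of 13066 genes were called. The groups overlapped, and knock-in heart 3 was the highest of all. Parts of the gene lay on opposite sides of this value.

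**Figure D1:**
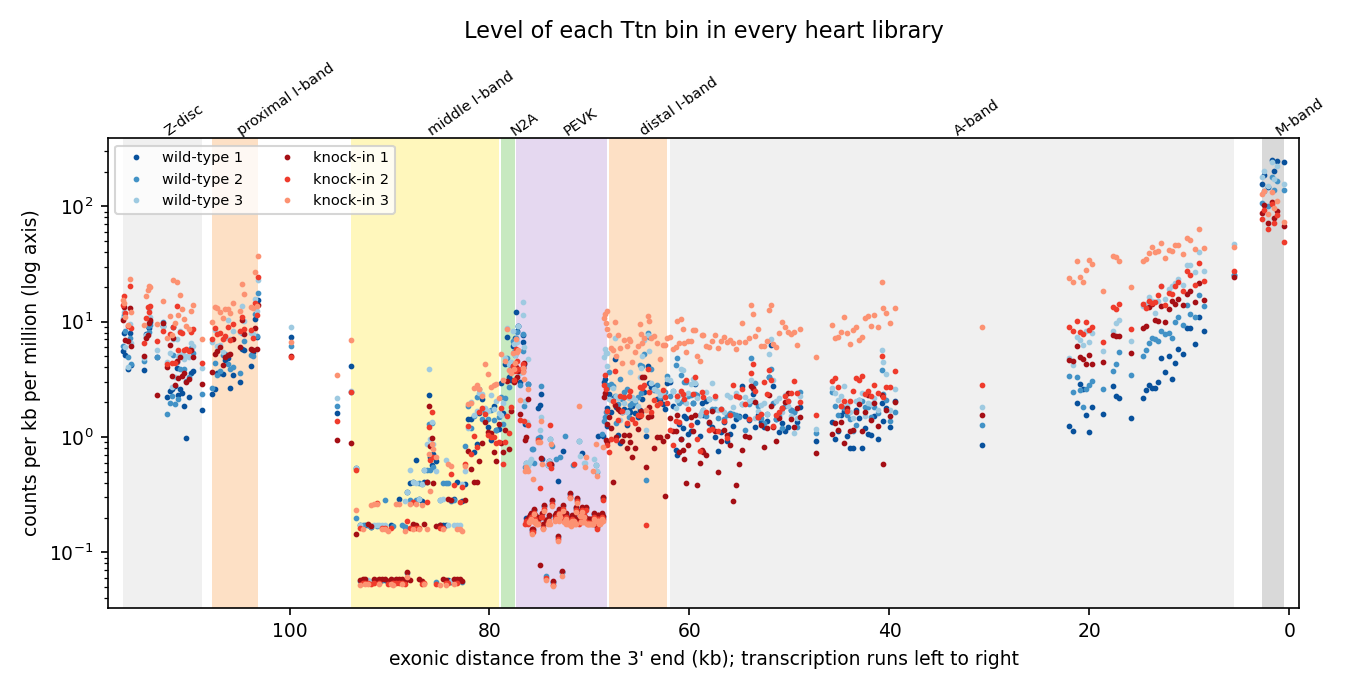
Level of Ttn exon bins along the transcript, with distance from the 3′ end in kb on the x axis and CPM per kb on a log y axis, coloured by heart, with parts shaded. Transcription runs from left to right. The M-band bins at the 3′ end stand far above the rest of the gene in both groups.

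At the 3′ end, the M-band exons fell in the knock-in. These are the last 6 exons, 342 to 347, which encode the carboxyl-terminal end of titin, with 1777 bases in bins inside the coding sequence. Their level was 217, 138 and 182 CPM per kb of exon in the wild type, against 82.4, 70.3 and 100.2 in the knock-in. The groups did not overlap. The difference was -1.09 ± 0.17 (log2, SE; edgeR, adjusted p = 0.00545), and it was the only one of the 10 parts that was called, where 10.7% of 13076 genes and parts were (6.67% higher and 4.05% lower). Leaving out each heart in turn gave -1.26 to -0.95, with edgeR adjusted p from 0.00220 to 0.0446. All 9 M-band bins tested on their own were called lower by edgeR, where 6.33% of 136349 bins were. Exon 346, the next to last exon, followed the M-band, at 97.9% to 104.7% of its level in the wild type and 101.8% to 108.8% in the knock-in, and these ranges overlapped. Inside the coding sequence the M-band bins stood at 202, 138 and 198 against 91.6, 83.0 and 116 CPM per kb, and past the stop codon at 242, 137 and 156 against 66.8, 48.8 and 72.7.

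The share of Ttn counts that fell on the M-band was 49.6 ± 10.4% in the wild type and 25.8 ± 8.35% in the knock-in (SD, n = 3). The A-band held 32.8 ± 9.45% and 55.1 ± 9.07% in the same order. Neither share overlapped between the groups (exact two-sided permutation test, p = 0.1, the smallest that 3 against 3 hearts allow). The shares of a heart add up to the whole, so these are not separate results. The shares of the Z-disc and proximal I-band (higher) and of N2A and PEVK (lower) did not overlap either. Nor did the share of the 15 bins outside all parts, at 3.44%, 3.48% and 3.32% against 3.19%, 2.69% and 1.97%. Groups without overlap were common along genes in these libraries, with 280 of 569 long genes for the slope of coverage.

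The A-band, exons 235 to 341, encodes the repeats that run along the thick filament and bind myosin and myosin-binding protein C. Its level was 3.86, 4.77 and 8.82 CPM per kb in the wild type and 5.30, 7.32 and 17.3 in the knock-in. Knock-in heart 3 was highest, and the other knock-in hearts lay within the wild-type range. The difference was 0.78 ± 0.46 (log2, SE; edgeR, adjusted p = 0.321). The exon of 5437 bases that encodes the titin kinase, exon 341, lies where the A-band meets the M-band, and its 25.3, 25.1 and 46.8 against 24.3, 27.3 and 44.1 CPM per kb overlapped (log2 -0.02, edgeR adjusted p = 0.968). Without it, the rest of the A-band stood at 1.69, 2.71 and 4.99 against 3.37, 5.30 and 14.6 (log2 1.31, edgeR adjusted p = 0.259). The largest exon, exon 309 of 17106 bases (76736064 to 76753169), divides the A-band. It held 457, 674 and 976 counts in the wild type and 818, 1590 and 5258 in the knock-in.

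**Figure D2:**
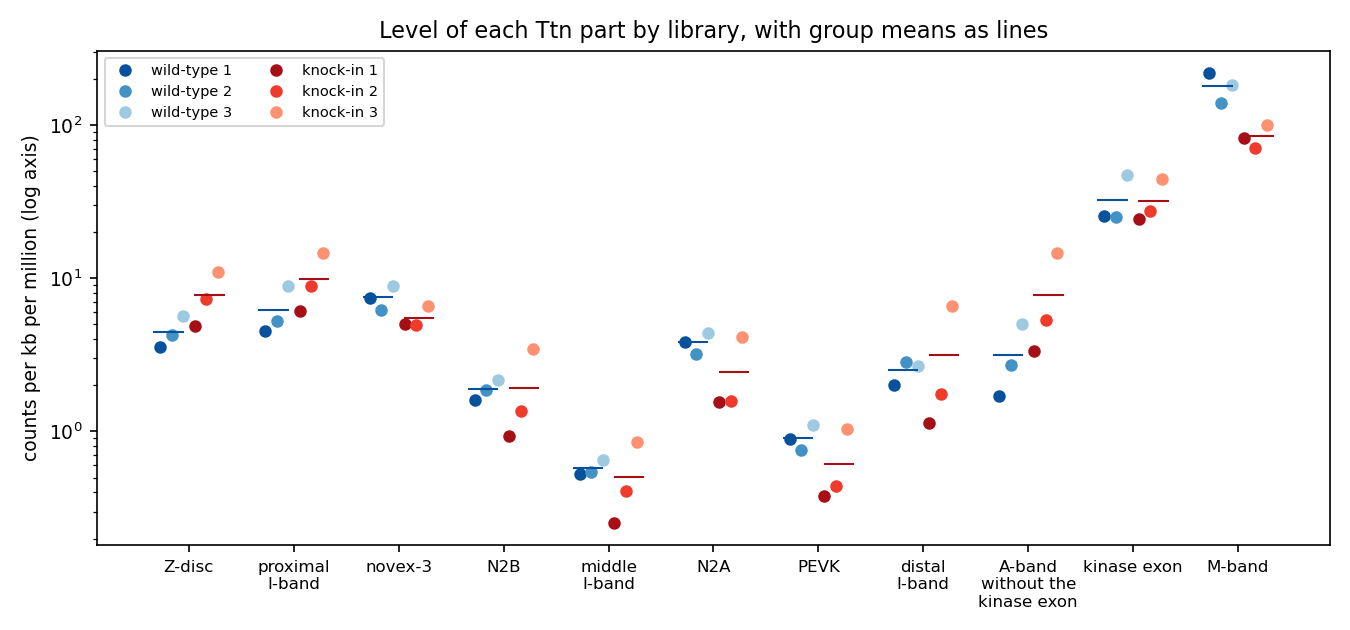
Level of each Ttn part in every heart, in CPM per kb on a log axis, by group. The M-band points do not overlap, with 138 to 217 in the wild type and 70.3 to 100.2 in the knock-in.

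At the 5′ end, the Z-disc exons 1 to 28, which anchor titin through alpha-actinin and telethonin, stood at 3.55, 4.25 and 5.64 CPM per kb in the wild type and 4.90, 7.33 and 11.01 in the knock-in. The groups overlapped in knock-in heart 1, and the difference of 0.79 ± 0.25 (log2, SE) had an edgeR adjusted p of 0.0660. It passed the test without wild-type heart 3 (0.99, edgeR adjusted p = 0.0182) and without knock-in heart 1 (1.02, edgeR adjusted p = 0.00693). The proximal I-band, exons 29 to 45, encodes immunoglobulin domains kept in the heart isoforms. It stood at 4.53, 5.23 and 8.90 against 6.09, 8.94 and 14.7, a difference of 0.67 ± 0.33 (log2, SE; edgeR, adjusted p = 0.217), which passed the test without wild-type heart 3 (1.02, edgeR adjusted p = 0.0298). The longest Z-disc bin, 1694 bases of exon 28, had 90, 125 and 207 counts against 149, 242 and 405, and the longest proximal bin, in exon 42, had 48, 44 and 69 against 49, 67 and 126. The Z-disc was at 80.7%, 83.3% and 65.1% of the proximal I-band in the wild type and at 82.4%, 82.7% and 78.2% in the knock-in.

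None of the spring elements that follow passed the test on the level of the whole part. Tested as single bins, edgeR called 4 of 8 PEVK bins, 1 of 8 N2A bins and the novex-3 bin lower. Over all 136349 bins, 6.33% were called lower. No N2B, middle I-band or distal I-band bin was called. The novex-3 exon, a single bin of 6520 bases that ends a short isoform, had 7.38, 6.19 and 8.93 CPM per kb in the wild type and 5.04, 4.93 and 6.62 in the knock-in (log2 -0.44 ± 0.16, SE; edgeR, adjusted p = 0.0930). The N2B exon, the unique element of the cardiac spring, had 1.61, 1.86 and 2.16 against 0.938, 1.37 and 3.44 (log2 0.03, edgeR adjusted p = 0.965). The N2A exons 99 to 106, which bind calpain 3 and ankyrin repeat proteins in skeletal muscle, had 3.84, 3.22 and 4.42 against 1.55, 1.57 and 4.16. Knock-in hearts 1 and 2 lay below every wild-type heart, and knock-in heart 3 lay among them. The longest N2A bin, of 286 bases, had 14, 11 and 17 counts against 6, 5 and 30. The N2A difference was -0.65 ± 0.33 (log2, SE; edgeR, adjusted p = 0.229), and without knock-in heart 3 it was -1.30 (edgeR, adjusted p = 0.0209).

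The middle I-band, exons 47 to 98, holds immunoglobulin domains that adult heart isoforms mostly skip. It stood at 0.524, 0.544 and 0.656 CPM per kb in the wild type and 0.253, 0.407 and 0.858 in the knock-in (log2 -0.18, edgeR adjusted p = 0.768), and its longest bin, in exon 48, had 9, 3 and 9 counts against 2, 9 and 4. The distal I-band, exons 208 to 234, stood at 2.02, 2.85 and 2.68 against 1.14, 1.75 and 6.57 (log2 0.33, edgeR adjusted p = 0.758). Its longest bin, 409 bases of exon 231, had 26, 28 and 29 counts against 12, 26 and 65. In both parts knock-in heart 3 was the highest of the 6 and knock-in heart 1 the lowest.

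The PEVK exons 107 to 207 were mostly at or near 0. Of their 113 bins, 47 had no count in any heart and 20 reached 10 counts over all 6. For a bin of 81 bases, the median length among those without a count, 0 counts allow a level of up to 0.194 CPM per kb over the 6 hearts, counting error only. The PEVK level was 0.888, 0.752 and 1.10 in the wild type and 0.382, 0.439 and 1.03 in the knock-in, a difference of -0.56 ± 0.32 (log2, SE; edgeR, adjusted p = 0.277). Without knock-in heart 3 it was -1.16 (edgeR, adjusted p = 0.0228). The counts sat at the edges of the region. Its first bin, exon 107 of 27 bases, had 17, 6 and 11 counts in the wild type and 3, 11 and 11 in the knock-in, the highest mean coverage per base of the PEVK bins. Fragments that only touch a bin were estimated to add the equivalent of 95.2 bases to it, which raises counts per base most in short bins. That rank therefore depends on bin length. The longest PEVK bin, 402 bases of exon 112, had 37, 35 and 44 against 19, 18 and 28, with no overlap. The last PEVK bin, in exon 207, had 2, 3 and 8 against 2, 1 and 17. The opening 9 exons, 107 to 115, which include exon 110 printed above, stood at 6.25, 4.998 and 6.79 against 2.73, 2.98 and 3.98 CPM per kb, and all 9 were lower when summed over the knock-in hearts. The middle exons 116 to 201, to which exon 141 belongs, stood at 0.194, 0.197 and 0.215 against 0.054, 0.059 and 0.162. The closing exons 202 to 207, to which exon 203 belongs, overlapped at 2.10, 1.80 and 4.92 against 1.32, 1.92 and 10.3. This division into opening, middle and closing exons was made after the values were seen, so it carries no test.

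Each I-band part was also divided by the A-band of the same heart, in bins of at least 50 bases. The N2A exons stood at 99.6%, 67.6% and 50.1% of the A-band in the wild type and at 29.4%, 21.5% and 24.0% in the knock-in, 2.81-fold lower. The PEVK exons stood at 20.3%, 14.7% and 11.4% against 6.89%, 5.31% and 5.32%, 2.59-fold lower. Of the 7 I-band parts set against the A-band, novex-3, N2B, the middle I-band, N2A and PEVK did not overlap between the groups, each with p = 0.1 in the exact two-sided permutation test. That is the smallest value possible here, so none can pass an adjustment over the 7. Groups without overlap were common in measures of coverage along genes: the slope did not overlap in 280 of 569 long genes, and limma called 31.6% of the 569. The proximal I-band overlapped, at 111%, 104% and 96.0% against 110%, 118% and 79.7% (exact p = 0.9). The distal I-band overlapped, at 49.3%, 56.1% and 29.8% against 20.0%, 23.8% and 36.0% (exact p = 0.2). These ratios depend on the kinase exon, which held 13.7% to 20.2% of all Ttn counts. Against the A-band without it, the distal I-band no longer overlapped, at 113%, 98.6% and 52.7% against 31.4%, 32.8% and 42.7% (log2 -1.24 in place of -0.76, exact p = 0.1). The proximal I-band then stood at 255%, 183% and 170% against 173%, 163% and 94.5% (log2 -0.53 in place of -0.04, exact p = 0.2), and N2A and PEVK differed by -1.98 and -1.86 (log2).

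The proximal I-band served as a second reference, since it neighbours the spring and lies far from the 3′ end. N2A was at 89.4%, 64.9% and 52.2% of it in the wild type and at 26.8%, 18.2% and 30.1% in the knock-in, 2.74-fold lower with no overlap. The opening PEVK exons were at 126%, 93.2% and 73.5% against 45.6%, 29.5% and 24.4%. Novex-3 (2.12-fold) and N2B (1.78-fold) were lower without overlap as well. So were the middle I-band, its exons 87 to 98 (1.87-fold) and the middle PEVK exons (3.99-fold). The closing PEVK exons, the distal I-band and the Z-disc overlapped. In all, 11 stretches, some sharing bins, were compared. For novex-3, N2B, the middle I-band and N2A, the exact two-sided permutation test gave p = 0.1, the smallest possible here. None can pass an adjustment over the 11. N2A was also lower relative to N2B, at 238%, 173% and 204% against 166%, 115% and 121%, 1.54-fold lower with no overlap. Relative to the distal I-band, N2A overlapped, at 202%, 121% and 168% against 147%, 90.5% and 66.7% (exact p = 0.2), and the opening PEVK exons relative to N2B overlapped as well. Both the A-band and the proximal I-band were higher in mean in the knock-in, so these ratios carry the level of the reference as well as that of the part.

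**Figure D3:**
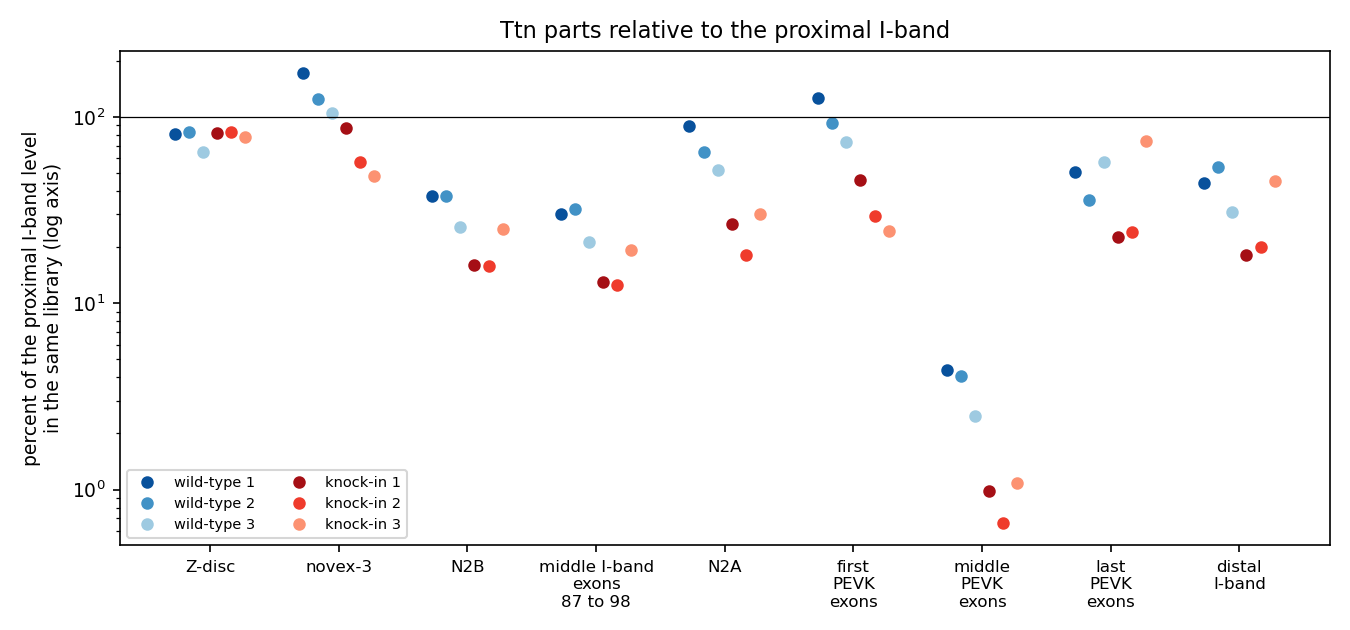
Coverage of Ttn parts as a percent of the proximal I-band in the same heart, on a log axis, with hearts by colour. N2A lies at 52.2% to 89.4% in the wild type and at 18.2% to 30.1% in the knock-in.

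Coverage of these libraries falls from the 3′ to the 5′ end of long transcripts, so the slope was measured and removed. A straight line through the 141 Z-disc, A-band and M-band bins of at least 50 bases gave -0.09, -0.12 and -0.18 log2 units per 10 kb in the wild type and -0.14, -0.12 and -0.18 in the knock-in, and these overlapped (exact two-sided permutation test, p = 0.7). The line took up 0.65% of the spread of the difference between the groups over bins, and a second degree curve 0.93%. Its removal therefore left the difference nearly as it was, and does not take out a coverage difference confined to the 3′ end. With no slope removed, the M-band differed by -1.69, N2A by -1.49 and N2B by -0.91 (log2). Within the A-band before exon 309 the slope was 0.05, 0.19 and 0.03 against -0.41, -0.39 and -0.29, and after it -1.84, -1.95 and -1.97 against -1.64, -1.27 and -0.80. Those stretches were chosen after the values were seen and carry no test.

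With the line of each heart removed, the M-band was lower in the knock-in by value. It stood at 1.77, 0.60 and 0.28 log2 units above the mean of the hearts against 0.05, -0.73 and -1.97, a difference of -1.77 with no overlap (exact p = 0.1). N2A stood at 1.18, 0.48 and 0.51 against -0.26, -0.99 and -0.92, a difference of -1.45 with no overlap (exact p = 0.1). The middle I-band differed by -1.14, N2B by -0.85 and the distal I-band by -0.75, each without overlap (exact p = 0.1). Many PEVK and middle I-band bins hold no count, so that their mean over all bins rests largely on the pseudocount. Over the 9 PEVK bins with a mean count of at least 10, PEVK differed by -1.20 without overlap (exact p = 0.1), and the middle I-band by -0.95 over its bins of that kind (exact p = 0.1). Novex-3 differed by -1.09 with overlap (exact p = 0.2), by a margin that other settings cross: it did not overlap with the second degree curve (-1.09), with no slope removed (-1.16) or with the line set by bins of a mean count of at least 10 (-1.10). The Z-disc (0.14, exact p = 0.6), the proximal I-band (0.00, exact p = 1) and the A-band (0.08, exact p = 0.7) overlapped. With a second degree curve removed in place of the line, the Z-disc (0.10) and the A-band (0.09) did not overlap (exact p = 0.1). Line and curve were fitted to the Z-disc, A-band and M-band bins, so what is left over these bins cancels out in each heart. The Z-disc and A-band values therefore offset the M-band value and are not results apart from it.

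The size of these values depended on the bins that set the line. With the line taken from A-band bins alone, the M-band differed by -2.68 (exact p = 0.1), while N2A (-0.72), the middle I-band (-0.24) and the distal I-band (-0.30) overlapped, N2B and novex-3 changed sign to 0.25 and 0.11, and the Z-disc and proximal I-band stood at 1.61 and 1.32 (exact p = 0.2 for each of these last). With the line taken from all bins, the M-band differed by -1.66, N2A by -0.82 and the middle I-band by -0.45, each without overlap (exact p = 0.1). The Z-disc (1.01), the proximal I-band (0.83) and the A-band (0.45) were then higher without overlap (exact p = 0.1), and N2B (-0.09), novex-3 (-0.31) and the distal I-band (-0.21) overlapped. What is left after this line cancels out over all bins, so the higher values offset the lower ones and are not separate results. The M-band was lower without overlap under each line tried.

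**Figure D4:**
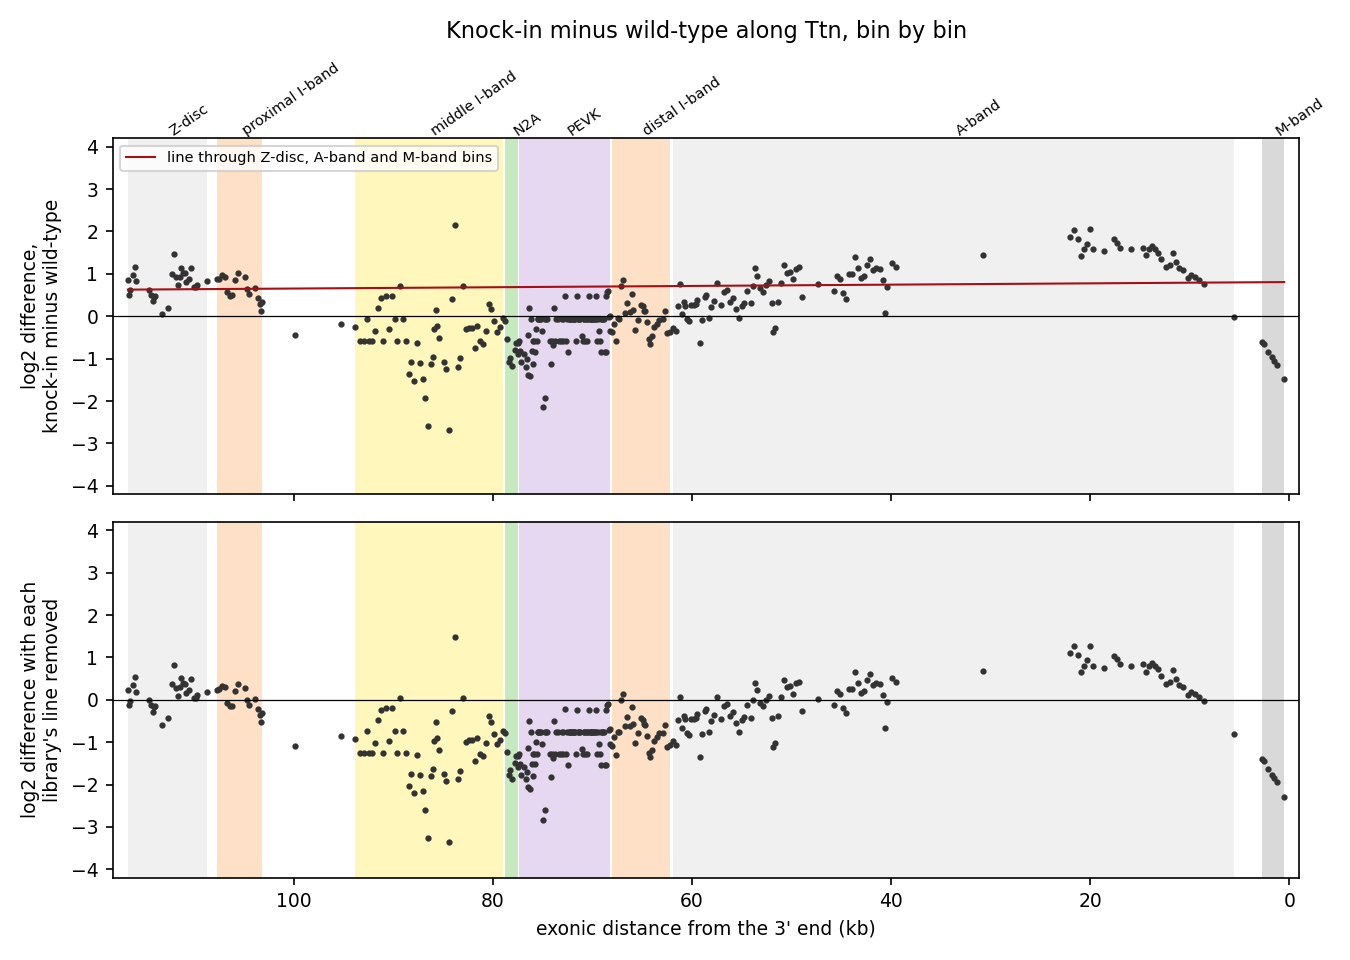
Knock-in minus wild-type difference in log2 level of each Ttn bin against distance from the 3′ end in kb, with parts shaded, before (top) and after (bottom) the line of each heart was removed. The top differences do not follow a straight line, which takes up 0.65% of their spread.

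Tested bin by bin, 8 of 219 Ttn bins changed their share of the gene, where 1.77% of all bins did, and the other 173 bins had too few counts. Against the rest of Ttn, 7 bins were higher in the knock-in, where 0.685% of 134727 bins were, and 1 was lower, where 1.09% were (edgeR diffSpliceDGE). All 7 lie in the A-band, in exons 309, 311, 312, 316, 318, 319 and 322, and 97 other A-band bins were not called. Usage is relative to the whole gene, the lower M-band included. On its own level, edgeR called 1 of the 104 A-band bins higher, where 8.35% of 136349 bins were. Exon 316 had 10, 26 and 62 counts in the wild type and 47, 83 and 351 in the knock-in, a usage difference of 2.22 (log2; edgeR adjusted p = 0.0251). Exon 309 had a usage difference of 1.78 (log2; edgeR adjusted p = 0.00960). Exon 318 had 86, 143 and 306 counts against 243, 387 and 1107, a usage difference of 1.63. The bin that was lower is the stretch of 1047 bases at the end of exon 347, with 7932, 4503 and 5092 counts against 2151, 1686 and 2597 (log2 usage -1.50, edgeR adjusted p = 0.0382). No N2A or PEVK bin was called on usage. These calls rest on single hearts: no bin was called without wild-type heart 1, without wild-type heart 2 or without knock-in heart 2, and 14 were higher without wild-type heart 3.

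With a line per gene and heart removed, where limma called 1.94% of all bins, it called 17 of 209 Ttn bins higher, where 0.758% of 82496 bins were, and 10 lower, where 1.18% were. The lower bins were 3 of 8 in N2A (exons 101, 103 and 104), 2 of 6 in PEVK (exons 110 and 112), N2B and 4 of 7 in the M-band. Exon 103 had 27, 22 and 35 counts in the wild type and 6, 9 and 34 in the knock-in (limma adjusted p = 0.00383). Exon 101, printed above, had 24, 12 and 27 counts against 6, 5 and 28 (limma adjusted p = 0.0490), and exon 110 had 21, 21 and 21 against 8, 9 and 14. In N2A, knock-in heart 3 had counts like the wild type while its A-band was the highest of all hearts. The higher bins were 14 of 104 in the A-band, exons 5 and 15 of the Z-disc and exon 31 of the proximal I-band. Exons 5, 15, 31 and 110 are named here after their values were seen. Without knock-in heart 2, 7 bins were higher and 1 was lower, and without wild-type heart 3, 38 and 11 were.

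The balance of 3′ and 5′ coverage moved with the group over long genes as a whole. In 550 genes with at least 8000 exonic bases, the log2 ratio of the last 2828 bases, the length of the M-band exons, to the rest had medians of 0.88, 0.65 and 0.42 in the wild type, against 0.04, -0.13 and -0.13 in the knock-in. Of these genes, limma called 67.6%, with 67.1% lower and 0.545% higher in the knock-in. The Ttn ratio was 5.99, 5.15 and 4.80 against 4.41, 3.75 and 3.13, a difference of -1.55 ± 0.38 (log2, SE; limma, adjusted p = 0.00892) beside a median of -0.61 over all of them, and Ttn ranked 8 from the lowest. The slope over the whole of Ttn did not pass the test among 569 long genes (-0.0082 ± 0.021 log2 per kb, SE; limma, adjusted p = 0.781), where 31.6% were called (31.1% higher and 0.527% lower) and the median was 0.0607. Among the longest other genes, Dst, Syne1, Ankrd17, Ank2 and Ank3 had slope differences of 0.0419, -0.0126, 0.0314, -0.0027 and 0.0397 log2 per kb, and none was called. Their SE was 0.0206 to 0.0229, and Dst, Ankrd17, Ank3 (higher) and Syne1 (lower) did not overlap between the groups. Slopes per kb are small in very long genes, so the lack of a call says little about Ttn or these genes. With each slope multiplied by exonic length, Ttn differed by -0.96 (log2; limma, adjusted p = 0.123). The part of this balance in the M-band result was not tested, and the group and the coverage of the library cannot be told apart.

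**Figure D5:**
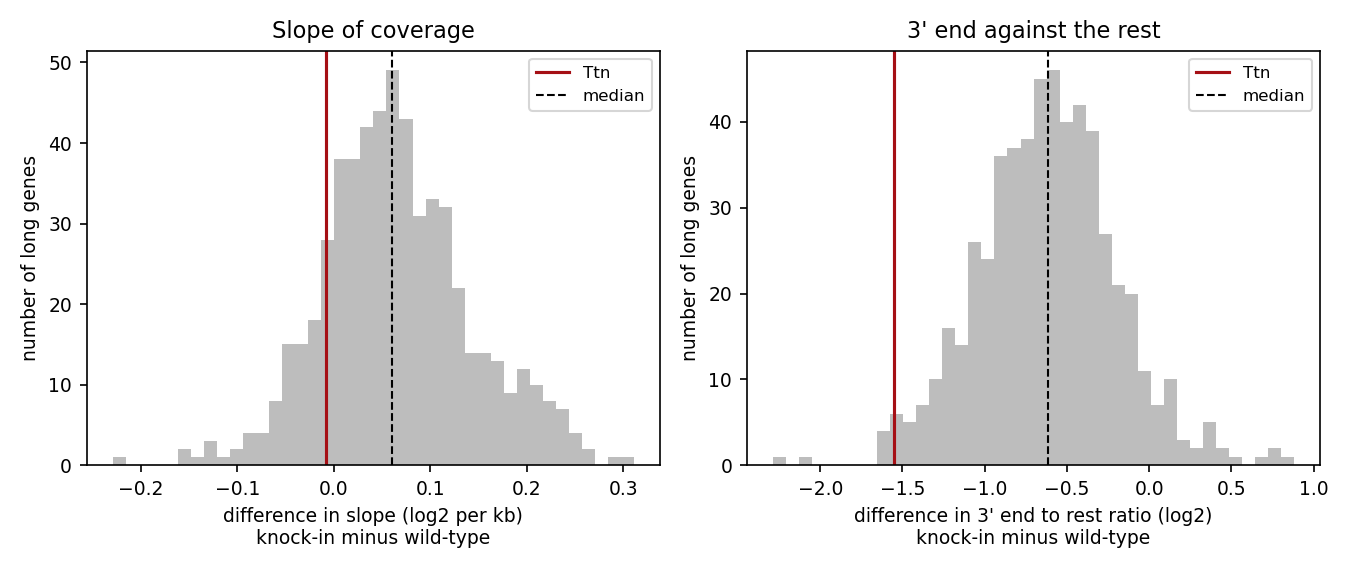
Histograms over long genes of the knock-in minus wild-type difference in slope (left, log2 per kb) and in the ratio of the 3′ end to the rest (right, log2), with Ttn in red and the median dashed. The ratio is lower in the knock-in in most genes, with a median difference of -0.61 and a Ttn difference of -1.55.

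Rbm20, the regulator of Ttn splicing, had 65.9, 71.8 and 96.1 CPM in the wild type and 96.2, 121 and 108.6 in the knock-in. The groups did not overlap by a narrow margin, with 96.07 in wild-type heart 3 and 96.16 in knock-in heart 1. The difference of 0.48 ± 0.15 (log2, SE) had an edgeR adjusted p of 0.0536. DESeq2 gave an adjusted p of 0.0243. Over all other settings, DESeq2 included, the adjusted p ran from 0.00614 to 0.0852, and with a heart left out (edgeR) from 0.00433 to 0.243. Of 25 genes listed as partners of titin, 22 were tested, and edgeR called 6 higher, where 6.74% of genes were, and 1 lower, where 4.09% were. The median over the 22 was 0.07 (log2), beside -0.004 over all genes. Nebl, which encodes the Z-disc protein nebulette, had 85.7, 116 and 166 CPM against 220, 293 and 347 (log2 1.22 ± 0.21, SE; edgeR, adjusted p = 0.00704). Myom2, an M-band protein that binds titin, was higher by 0.88 ± 0.13 (log2, SE; edgeR, adjusted p = 0.00523), as was Myom1 by 0.36 (edgeR, adjusted p = 0.0376). Nbr1 and Trim55, which bind at or near the titin kinase, were higher by 0.71 and 0.56 (log2; edgeR, adjusted p = 0.0112 and 0.0296), and Cmya5 by 0.51 (edgeR, adjusted p = 0.0449). Ankrd1, an ankyrin repeat protein that binds N2A, fell by 0.52 (log2; edgeR, adjusted p = 0.0165). Nebl and Myom2 stayed called with each heart left out. Without wild-type heart 1, the edgeR adjusted p was 0.0708 for Nbr1, 0.178 for Myom1, 0.133 for Trim55, 0.219 for Cmya5 and 0.0633 for Ankrd1, and these calls were also lost without wild-type heart 2 or knock-in heart 2.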

How the data were processed

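Total RNA from 6 hearts was extracted with RNeasy columns and made into NEBNext Ultra II libraries, per the labels' protocols. The authors deposited raw read counts per exon bin, and STAR, featureCounts, Subread 1.5.2 and DESeq2 with GRCm38.p6 are named in the submitters' processing notes. Bins were summed to 48005 gene identifiers. Counts were tested with edgeR 4.0.16 (quasi-likelihood, TMM, Benjamini-Hochberg over all features), bin usage with diffSpliceDGE, and slopes, end ratios and line-removed bins with limma 3.58.1 on log2((count + 0.5) / length). DESeq2 1.42.0 was an alternative. Single values used exact two-sided permutation tests, which cannot go below p = 0.1 with 3 hearts against 3. The threshold was an adjusted p of 0.05. Bins under 50 bases were left out of slopes and ratios. Long genes had at least 8000 exonic bases, 15 bins and 6000 counts.

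Named were all parts, the longest bin of each part, the novex-3, N2B, N2A and M-band bins, the first and last PEVK bin, up to 10 bins in each direction called on usage with a mean count of at least 50, Rbm20, called partner genes and the 5 longest genes besides Ttn. The members, parts and lists were chosen with earlier results of these data known. On simulated counts for this comparison, edgeR called 193 of 200 genes changed 2-fold among 13067 tested, and bin usage called 194 of 200 bins changed 3-fold, with 15.7% of its calls outside the changed bins. The simulated bins shared no reads and had no difference in 3′ to 5′ coverage between the groups. These rates therefore do not carry over to the Ttn usage calls.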

Additional observations from a re-analysis of the deposited data

How the results depend on the processing

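No paired analysis was possible because the labels give the hearts no replicate number shared between the groups. The M-band level kept its direction and its call under every alternative run and with each heart left out. With the kinase exon added it was -0.73. Leaving out each heart gave ranges of -0.50 to 0.20 for the Ttn gene level, 0.44 to 1.02 for the Z-disc, 0.26 to 1.02 for the proximal I-band, -0.72 to 0.34 for N2B, -0.81 to 0.12 for the middle I-band, -1.30 to -0.41 for N2A, -1.16 to -0.32 for PEVK and -0.81 to 0.71 for the distal I-band (log2 levels). The gene level was 0.0125 with bins of at least 50 bases and 0.78 with A-band bins. N2B was -0.0451 with upper-quartile scaling. The Z-disc was 0.7821 with DESeq2 and novex-3 was -0.4479 without the filter on low counts, and both then passed the test. Usage calls in the higher direction numbered 0 with voom, 4 with bins of at least 50 bases, 1 at a threshold of 0.01 and 0 to 14 with a heart left out, and in the lower direction 5, 1, 0 and 0 to 1. With the line removed, 20 bins were lower with a pseudocount of 5, and leaving out a heart gave 7 to 38 higher and 1 to 20 lower. The proximal I-band relative to the A-band ranged from -0.15 to 0.13 with a heart left out and was -0.53 without the kinase exon, and the slope of Ttn from -0.039 to 0.0035. With the slope removed, leaving out a heart gave -0.0149 to 0.35 for the Z-disc, -0.15 to 0.21 for the proximal I-band and -0.0105 to 0.15 for the A-band. The proximal I-band was -0.0438 with all bins, -0.0114 with a second degree curve, -0.0760 with no slope removed and -0.0058 with bins of a mean count of at least 10. With the slope taken from A-band bins, novex-3 was 0.11, N2B 0.25, the proximal I-band 1.32, the Z-disc 1.61 and the M-band -2.68, and with the slope taken from all bins the proximal I-band was 0.83, the Z-disc 1.01 and the A-band 0.45. Fhl2, Ldb3 and Nexn were -0.0381, -0.0499 and -0.0227 with upper-quartile scaling, and with a heart left out Tcap ranged from -0.35 to 0.11, Ldb3 from -0.053 to 0.10, Nexn from -0.053 to 0.23 and Fhl2 from -0.024 to 0.090. The median over bins gave no value for parts whose median is 0, PEVK among them. Nebl lost its call without the filter on low counts (adjusted p = 0.0513), and Myom1, Cmya5 and Trim55 with upper-quartile scaling. The cause of these shifts was not tested.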
